A study of Mus musculus with 15 samples.

Results

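Glycolysis, glycogen and pyruvate metabolism were followed in mouse perigonadal fat, the depot beside the gonads, through 43 genes fixed by symbol. Rows of the count table were taken where their Entrez ID carried a listed symbol, and all 43 members were found among 35794 Entrez IDs. All 43 also passed the filter on low counts, which kept 15208 genes. Entrez IDs of the 12 members that changed in at least 1 comparison are Hk2 15277, Pfkp 56421, Pfkfb1 18639, Pfkfb4 270198, Tpi1 21991, Slc16a1 20501, Pdk2 18604, Pdk4 27273, Gys1 14936, Pygb 110078, Pgd 110208 and Tkt 21881. Poly(A) RNA was sequenced from C57BL/6 mice killed at 14 weeks of age, with 1 library per sample. Lean mice ate chow throughout. Obese mice ate a 60% high-fat diet from 8 weeks of age. Weight loss mice ate that diet for 5 weeks and were then put back on chow for 1 week. There were 5 libraries of lean, 5 of obese and 4 of weight loss fat, with totals from 13924770 to 33807887 counts. Weight loss replicate 5, with 230 counts in all, entered no comparison. Sex is not given in the labels, and all mice carried the same strain background with no named allele. The series calls the samples independent, and p-values test a difference between groups against the spread between samples of a group.

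Glycolysis splits glucose into pyruvate, which is turned into lactate or enters mitochondria through pyruvate dehydrogenase, a complex switched off by pyruvate dehydrogenase kinases. The pentose phosphate pathway branches off at glucose 6-phosphate and supplies NADPH, and glycogen synthase and phosphorylase store and release glucose. In adipocytes these routes feed fatty acid synthesis and supply the glycerol backbone of triglyceride, partly through pyruvate carboxylase and phosphoenolpyruvate carboxykinase.

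The labelled tissue was checked against its markers. All 8 adipocyte markers (Adipoq, Plin1, Fabp4, Cidec, Lipe, Pnpla2, Retn and Cfd) had counts in all 14 libraries, and their summed level ran from 20100 to 37140 CPM, counts per 1000000 scaled by library size and TMM factors. The sum was 31150 ± 5040 CPM in lean, 22890 ± 3220 CPM in obese and 27920 ± 5810 CPM in weight loss fat (SD; n = 5, 5 and 4). Cfd alone stood at 10100 ± 2750, 3686 ± 800 and 7377 ± 3520 CPM in these groups. In obese against lean fat 1 of the 8 markers passed edgeR's test (12.5%, beside 9.71% of all genes). Of the 8, 2 had positive log2 values there, and 6 had negative ones. Of 12 macrophage markers 8 rose in obese against lean fat (66.7%, beside 5.86% of all genes higher). In weight loss against obese fat 0 of 12 passed edgeR's test, beside 1.62% of all genes. There 0 had an unadjusted p under 0.05, beside 14.3% of all genes. Against lean fat 0 passed, beside 0.0329% of all genes, and 9 had an unadjusted p under 0.05, beside 11.4%. The summed level was 468.7 to 1057 CPM in lean, 1033 to 1625 CPM in obese and 634.7 to 1429 CPM in weight loss libraries, with no marker at 0 in any library. Their part in the changes of members in obese fat was not tested. Markers of the epididymis, which adjoins this fat pad in males, summed to 2700 CPM in lean replicate 1 and to 6390, 3617 and 4866 CPM in obese replicates 2, 4 and 5. The other 10 libraries held 543.8 CPM or less of them. Of 6 neutrophil markers 5 were tested and 2 rose in obese against lean fat (40%, beside 5.86% of all genes higher). These were S100a8, at 0.433 ± 0.395 CPM in lean, 4.39 ± 0.958 CPM in obese and 0.523 ± 0.197 CPM in weight loss fat, and S100a9, at 0.0452, 0.872 and 0.558 CPM. S100a8 also fell in weight loss against obese fat (adjusted p = 0.0191 in edgeR's test), and Ly6g was at 0 in all libraries. S100a9 had no counts in 5 libraries. Positive log2 values for obese against lean fat were found for 4 of the 5 tested markers and a negative value for 1. The mean of Cxcr2, the most abundant, was 16.31 CPM for obese fat beside 21.23 CPM for lean fat. Summed over the list, group means differed little (lean 27.68 ± 6.12, obese 29.73 ± 2.27, weight loss 28.72 ± 2.83 CPM). The part of the neutrophil markers in the results was not tested, and fits that took the epididymis markers into account are given below. These are bulk samples, in which fewer cells of a type and less RNA per cell cannot be told apart.

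Promoter sequences are given for 4 members whose levels differed between lean and obese fat, a hexokinase, a lactate and pyruvate carrier and a pair of pyruvate dehydrogenase kinases that moved in opposite directions. Each line holds the 250 bases before a RefSeq transcription start on GRCm38.p6 (mm10), 5′ to 3′ on the gene's strand, with matches to ACGTG (the core of the hypoxia response element) or CACGTG (the E-box) on either strand in capitals. The E-box contains the hypoxia core, so each E-box counts for both.
Hk2 (chr6:82774455-82774704, minus strand): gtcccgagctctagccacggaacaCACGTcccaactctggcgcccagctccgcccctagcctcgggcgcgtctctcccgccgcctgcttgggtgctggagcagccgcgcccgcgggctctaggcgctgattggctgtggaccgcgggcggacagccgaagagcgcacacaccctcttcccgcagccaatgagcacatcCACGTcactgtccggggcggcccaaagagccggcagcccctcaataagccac
Slc16a1 (chr3:104638414-104638663, plus strand): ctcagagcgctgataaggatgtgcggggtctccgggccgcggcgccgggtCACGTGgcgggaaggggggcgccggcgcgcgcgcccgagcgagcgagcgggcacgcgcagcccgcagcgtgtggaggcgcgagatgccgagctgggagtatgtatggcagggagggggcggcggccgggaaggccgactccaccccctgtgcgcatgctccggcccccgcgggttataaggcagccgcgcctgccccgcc
Pdk2 (chr11:95041372-95041621, minus strand): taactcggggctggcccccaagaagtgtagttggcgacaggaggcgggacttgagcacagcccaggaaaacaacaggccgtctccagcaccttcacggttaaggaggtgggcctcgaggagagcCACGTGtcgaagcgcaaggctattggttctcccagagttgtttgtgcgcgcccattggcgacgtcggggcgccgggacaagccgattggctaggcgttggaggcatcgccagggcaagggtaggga
Pdk4 (chr6:5496279-5496528, minus strand): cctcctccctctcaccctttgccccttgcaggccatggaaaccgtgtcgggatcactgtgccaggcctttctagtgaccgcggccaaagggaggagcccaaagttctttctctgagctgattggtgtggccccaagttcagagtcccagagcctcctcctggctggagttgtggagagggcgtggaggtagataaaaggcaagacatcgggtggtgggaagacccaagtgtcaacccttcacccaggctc
GC content was 69.6% in the Hk2, 76.4% in the Slc16a1, 62.4% in the Pdk2 and 58.8% in the Pdk4 window. The Hk2 window held 2 hypoxia cores, the Slc16a1 and Pdk2 windows 1 E-box each, and the Pdk4 window neither motif. Pdk2 had a further start inside the gene, whose window held no match. Of the other members that changed between lean and obese fat, Pygb held ACGTG in its window. Pfkp, Pfkfb1, Pfkfb4, Gys1 and Tkt held neither motif in any window. Over all promoters, 18.5% of 27025 genes held ACGTG and 6.86% held CACGTG in a window before at least 1 start. Among the 42 members with a RefSeq window, 20 held ACGTG (47.6%) and 7 held CACGTG (16.7%). Since 15 of these members had more than 1 start, the share over single windows is also given: 37.5% of 64 member windows against 16.6% of 32851 windows for ACGTG, and 10.9% against 6.02% for CACGTG. A match describes letters and is no evidence of binding.

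Obese against lean fat compares mice on the high-fat diet with mice on chow. In obese fat 10 of the 43 members changed, 4 higher and 6 lower, at an adjusted p under 0.05 in edgeR's quasi-likelihood test (Benjamini-Hochberg over all genes). Pfkp, Pfkfb4, Slc16a1 and Pdk4 rose. Hk2, Pfkfb1, Pdk2, Gys1, Pygb and Tkt fell. The share called was 23.3% of the members against 9.71% of all 15208 genes tested (5.86% higher and 3.85% lower). The median log2 fold change of the members was -0.03, beside -0.02 over all genes. Among the bifunctional regulators of phosphofructokinase and among the pyruvate dehydrogenase kinases, 1 isozyme rose and another fell. Ranges of obese and lean libraries did not overlap for 4 members higher in obese fat (Pfkp, Pfkfb4, Pdk4 and Tpi1) and 5 lower (Hk2, Pfkm, Pfkfb1, Pdk2 and Gys1), beside 6.04% and 4.31% of all genes.

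**Figure D1:**
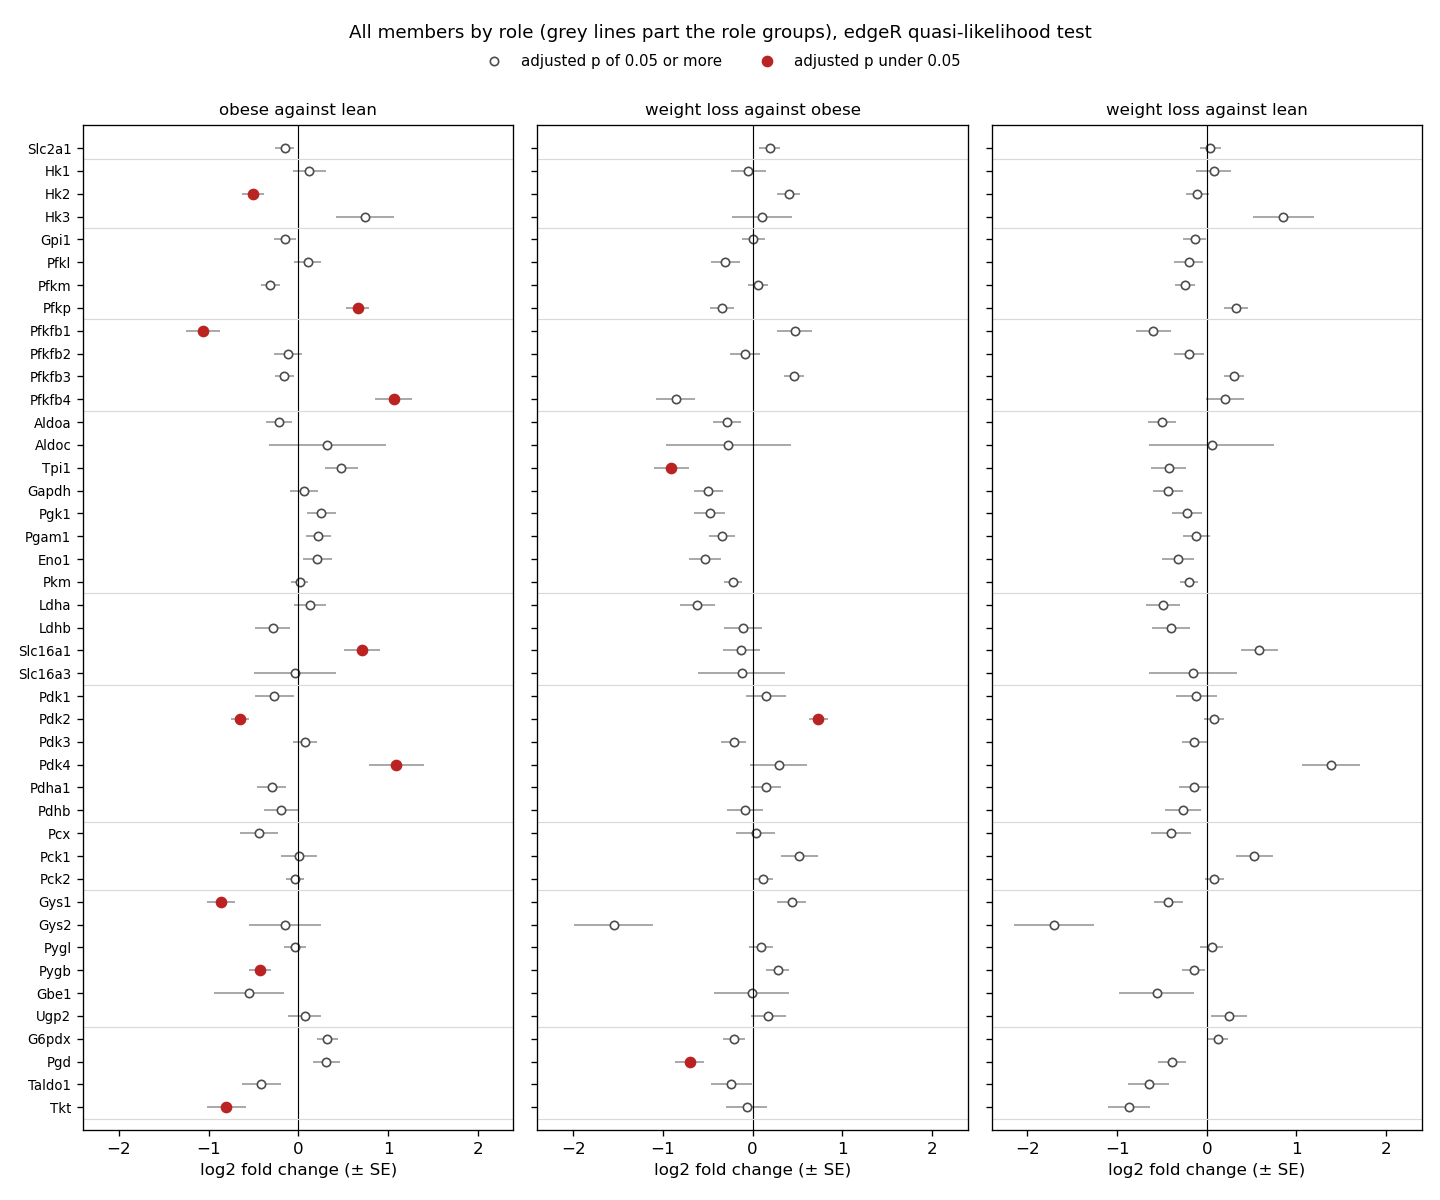
Log2 fold change (x axis, ± standard error) of all 43 members in each comparison, ordered by role from glucose uptake at the top to the pentose phosphate pathway at the bottom. Filled points passed an adjusted p of 0.05, with 10 in obese against lean, 3 in weight loss against obese and 0 in weight loss against lean.

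Glucose uptake and phosphorylation come first in the pathway. Slc2a1, the basal glucose transporter, stood at 31.2, 24.3, 24.0, 23.9 and 22.9 CPM in lean replicates 1 to 5, at 25.2, 21.6, 23.5, 22.5 and 20.8 CPM in obese replicates 1 to 5, and at 25.4, 27.1, 24.3 and 27.1 CPM in weight loss replicates 1 to 4. The groups overlapped, and Slc2a1 had a log2 value of -0.15 ± 0.11 in obese against lean fat (adjusted p = 0.43). Hk2, the insulin-responsive hexokinase, stood at 181, 196, 150.1, 187 and 145 CPM in lean, 127, 131, 114, 112 and 122 CPM in obese and 171, 172, 123 and 174 CPM in weight loss replicates, in the same order. Every obese library lay below every lean library, and 3 of 4 weight loss libraries lay within the lean range. Hk2 fell by 0.51 ± 0.12 on the log2 scale in obese fat (adjusted p = 0.0171), from 172 ± 22.9 to 121.0 ± 8.04 CPM (SD, n = 5). Per kilobase of merged exons Hk2 was the main hexokinase, with 74.6 ± 4.5% of the family's level in lean, 63.6 ± 2.7% in obese and 70.0 ± 7.7% in weight loss fat. Hk1, the housekeeping form, stood at 42.0 CPM in lean fat against 45.7 CPM in obese fat (adjusted p = 0.734). Hk3, a hexokinase of myeloid cells, stood at 5.88 ± 1.02 and 9.89 ± 2.14 CPM in lean and obese fat (log2 0.75 ± 0.32, adjusted p = 0.163), and passed when only both groups were fitted (adjusted p = 0.0402). The part of the macrophage markers in the Hk3 values was not tested.

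Glucose phosphate isomerase and phosphofructokinase, the committing step of glycolysis, follow. Gpi1, the isomerase, stood at 482, 477, 394, 505 and 465 CPM in lean, 402, 391, 460.4, 389 and 456 CPM in obese and 409, 392, 349 and 540.5 CPM in weight loss replicates. Its 3 groups overlapped (log2 -0.15 ± 0.12 in obese against lean, adjusted p = 0.499). Pfkp, the platelet-type phosphofructokinase, stood at 57.8, 53.5, 68.6, 47.2 and 49.4 CPM in lean, 109, 71.4, 91.1, 85.6 and 81.1 CPM in obese and 74.5, 65.5, 74.2 and 62.5 CPM in weight loss replicates. The lowest obese library lay above the highest lean library, and all 4 weight loss libraries lay between the lean and the obese mean. Pfkp rose 1.58-fold (log2 0.66 ± 0.13, adjusted p = 0.00572). Pfkl, the liver-type subunit, made up most of the family per kilobase in each group (65.6 ± 3.4% in lean, 63.0 ± 4.8% in obese and 61.2 ± 4.9% in weight loss fat), and its level did not pass (log2 0.10 ± 0.15, adjusted p = 0.729). Pfkm, the muscle-type subunit, stood at 37.0 to 41.2 CPM in lean fat against 26.6 to 35.7 CPM in obese fat, ranges that did not overlap, but missed the threshold (log2 -0.31 ± 0.10, adjusted p = 0.0729). It passed with DESeq2's Wald test (adjusted p = 0.0299) and without obese replicate 5 (adjusted p = 0.0426). The Wald test called 2260 genes in this comparison, beside 1477 in edgeR's test. The share of the family held by Pfkp was 17.1 ± 3.1% in lean and 24.5 ± 4.9% in obese fat.

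The bifunctional enzymes that make and break the allosteric activator of phosphofructokinase held the widest contrast among isozymes. Pfkfb1, the liver and muscle form, stood at 105, 173, 124, 147 and 186 CPM in lean, 76.1, 56.8, 70.6, 63.7 and 83.9 CPM in obese and 80.3, 110.5, 71.7 and 127 CPM in weight loss replicates. All 5 obese libraries lay below all 5 lean libraries. Pfkfb1 fell by 1.07 ± 0.19 on the log2 scale (adjusted p = 0.00308), from 147.0 to 70.2 CPM. Pfkfb4, a form first described in testis, stood at 15.7, 14.0, 9.45, 15.8 and 13.2 CPM in lean, 24.0, 26.2, 19.4, 32.1 and 40.6 CPM in obese and 18.5, 16.3, 16.1 and 11.9 CPM in weight loss replicates. Here every obese library lay above every lean and every weight loss library. Pfkfb4 rose 2.09-fold in obese against lean fat (log2 1.06 ± 0.20, adjusted p = 0.00526). Pfkfb3, the inducible form with high kinase activity, was the main member per kilobase, with 62.0 ± 4.7% of the family in lean and 71.3 ± 3.3% in obese fat. Its level stood at 699, 646, 632, 878 and 812 CPM in lean, 653, 674, 644, 687 and 627 CPM in obese and 1020.3, 915, 835 and 846 CPM in weight loss replicates. The lean and obese ranges overlapped (log2 -0.16 ± 0.11, adjusted p = 0.395), while all 4 weight loss libraries lay above all 5 obese libraries. Pfkfb2, the heart form, did not pass (log2 -0.11 ± 0.16, adjusted p = 0.721).

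**Figure D2:**
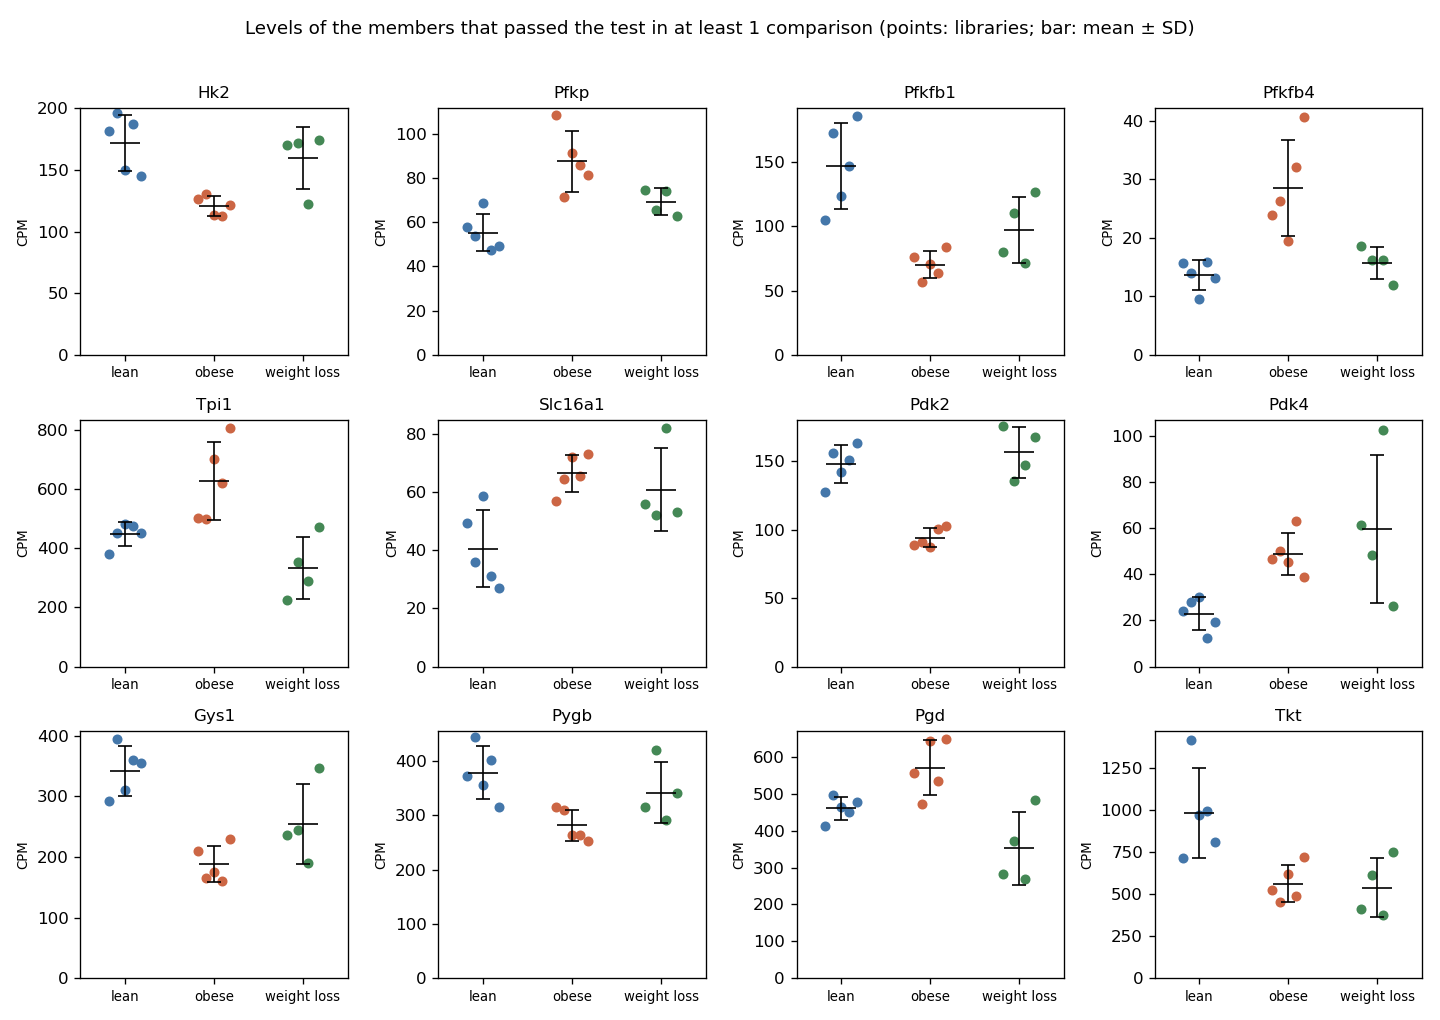
CPM (y axis, from 0) of the 12 members that passed the test in at least 1 comparison, with 1 point per library and the mean ± SD of each group. Obese libraries lie apart from lean ones for Hk2, Pfkp, Pfkfb1, Pfkfb4, Tpi1, Pdk2, Pdk4 and Gys1, and weight loss libraries lie apart from obese ones for Pfkfb4, Tpi1 and Pdk2.

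The enzymes of lower glycolysis, from aldolase to pyruvate kinase, showed no call between obese and lean fat, with 0 of 8 at an adjusted p under 0.05. At an unadjusted p under 0.05 there was 1 of 8 (Tpi1), beside 24.8% of all genes. Aldoa, the main aldolase with 99.7 ± 0.21% of the family per kilobase in lean fat, stood at 1367, 1973, 1422, 1779 and 1626 CPM in lean, 1338, 1213, 1548, 1351 and 1577 CPM in obese and 974, 1206, 927 and 1503 CPM in weight loss replicates. Its obese range lay within the span of the lean and weight loss values. Tpi1, triose phosphate isomerase, stood at 381, 452, 482, 475 and 452 CPM in lean, 503, 498, 702, 621 and 805 CPM in obese and 223, 353, 289 and 470.1 CPM in weight loss replicates. Its obese libraries lay above all lean and all weight loss libraries, yet the obese against lean difference did not pass (log2 0.48 ± 0.18, adjusted p = 0.113). Gapdh, Pgk1, Pgam1 and Eno1, which act in turn below Tpi1, had log2 values between 0.06 and 0.26 in obese against lean fat, and Pkm, pyruvate kinase, had 0.02 ± 0.09. Aldoc, the brain-type aldolase, stood at 0.142 to 9.32 CPM in lean fat and 3.53 to 9.46 CPM in obese fat.

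Pyruvate is then reduced to lactate or exchanged across the cell membrane. Ldha, the lactate dehydrogenase subunit that favours lactate, stood at 407, 585, 533, 422 and 419 CPM in lean, 465.8, 383, 547, 515 and 675 CPM in obese and 257, 404, 272 and 419 CPM in weight loss replicates. Lean and obese libraries overlapped, and Ldha had a log2 value of 0.13 ± 0.18 (adjusted p = 0.72). Ldhb, the heart-type subunit, stood at 126 ± 13.5 CPM in lean fat against 104 ± 22.3 CPM in obese fat (adjusted p = 0.412). Slc16a1, the carrier MCT1 for lactate and pyruvate, stood at 49.5, 36.0, 58.6, 31.2 and 27.0 CPM in lean, 57.0, 64.5, 71.9, 65.5 and 73.0 CPM in obese and 55.8, 52.3, 82.2 and 53.3 CPM in weight loss replicates. Lean replicate 3 reached into the obese range, and the other 4 lean libraries lay below it. Slc16a1 rose 1.64-fold in obese fat (log2 0.71 ± 0.20, adjusted p = 0.0353). Slc16a3, the lactate exporter MCT4, stood at 8.18 and 8.00 CPM in lean and obese fat (adjusted p = 0.976).

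Of the 4 pyruvate dehydrogenase kinases, Pdk2 fell and Pdk4 rose in obese fat. Pdk2, the most widely expressed of these kinases, stood at 128, 156, 142, 151 and 163 CPM in lean, 89.0, 91.3, 87.3, 101 and 103 CPM in obese and 176, 136, 147 and 168 CPM in weight loss replicates. The obese libraries lay below all others, and lean and weight loss libraries overlapped. Pdk2 fell by 0.65 ± 0.10 on the log2 scale, from 148 ± 13.8 to 94.2 ± 7.05 CPM (SD, n = 5; adjusted p = 0.00151). Pdk4, the kinase induced by fasting, stood at 24.1, 28.0, 30.3, 12.3 and 19.4 CPM in lean, 46.5, 49.9, 45.4, 63.1 and 39.0 CPM in obese and 61.4, 48.3, 103 and 26.3 CPM in weight loss replicates. All obese libraries lay above all lean ones, and weight loss libraries spread over both ranges and beyond. Pdk4 rose 2.13-fold in obese fat (log2 1.09 ± 0.30, adjusted p = 0.0355). Per kilobase, Pdk2 held 73.8 ± 4.8% of the family in lean and 58.4 ± 4.0% in obese fat, while Pdk4 held 7.31 ± 2.2% and 19.3 ± 2.2%. Pdk1 and Pdk3 did not pass (adjusted p = 0.492 and 0.792). Of the catalytic subunits, Pdhb stood at 143, 201, 208, 206 and 187 CPM in lean, 149, 121, 202, 180.0 and 177 CPM in obese and 100.2, 159.6, 146 and 222 CPM in weight loss replicates. The groups overlapped for Pdhb and for Pdha1, with adjusted p values of 0.609 and 0.266 in obese against lean fat.

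Carboxylation and glyceroneogenesis had 0 of 3 members called between obese and lean fat and 0 at an unadjusted p under 0.05. Pcx, pyruvate carboxylase, stood at 941 to 2158 CPM in lean fat against 771 to 1282 CPM in obese fat (log2 -0.44 ± 0.21, adjusted p = 0.206). Pck1, the cytosolic carboxykinase of glyceroneogenesis, stood at 683, 696, 1042, 643 and 636 CPM in lean, 779, 798, 846, 775 and 521 CPM in obese and 1183, 1199, 1264 and 629 CPM in weight loss replicates. Lean and obese ranges overlapped (log2 0.01 ± 0.20, adjusted p = 0.987), and 3 of 4 weight loss libraries lay above every other library. Even so, 0 of the 3 members passed in weight loss against obese or against lean fat. Pck2, the mitochondrial form, held 5.02 ± 1.0% of the family per kilobase in lean fat.

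Of the 6 glycogen genes 2 fell in obese fat, a synthase and a phosphorylase. Gys1, the muscle-type synthase, stood at 293, 395, 310.4, 360.2 and 354 CPM in lean, 211, 166, 176, 159.7 and 229 CPM in obese and 237, 244, 190.4 and 347 CPM in weight loss replicates. No obese library reached the lean range, and weight loss libraries spanned the gap between both. Gys1 fell by 0.86 ± 0.16 on the log2 scale (adjusted p = 0.00374), from 343 ± 41.1 to 188 ± 30.2 CPM. Pygb, the brain-type phosphorylase, stood at 373, 444, 356, 402 and 314 CPM in lean, 315, 309.5, 264, 264 and 253 CPM in obese and 314, 420.3, 291 and 340.1 CPM in weight loss replicates. Lean replicate 5 and obese replicate 1 met at 314 and 315 CPM, and the other libraries of both groups were apart. Pygb fell by 0.43 ± 0.12 on the log2 scale (adjusted p = 0.042). Pygl, the liver-type phosphorylase and the other main form per kilobase, had a log2 value of -0.04 ± 0.12 (adjusted p = 0.884). The branching enzyme Gbe1, the UDP-glucose enzyme Ugp2 and the liver-type synthase Gys2 did not pass, with adjusted p values of 0.429, 0.863 and 0.862.

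In the pentose phosphate pathway 1 of 4 members passed. Tkt, transketolase of the non-oxidative branch, stood at 714, 1412, 970.1, 989.9 and 809 CPM in lean, 525, 451, 622, 491 and 719 CPM in obese and 409, 612, 378 and 751 CPM in weight loss replicates. Only lean replicate 1 and obese replicate 5 overlapped between those groups. Tkt fell by 0.80 ± 0.22 on the log2 scale (adjusted p = 0.0313), from 979 to 562 CPM. Taldo1, transaldolase, stood at 541, 921, 772, 624 and 776 CPM in lean, 451, 419, 639, 503 and 719 CPM in obese and 321, 482, 364 and 686 CPM in weight loss replicates, and did not pass (log2 -0.41 ± 0.22, adjusted p = 0.259). G6pdx and Pgd, the NADPH-making dehydrogenases of the oxidative branch, had positive log2 values of 0.32 ± 0.11 and 0.31 ± 0.15, and neither passed (adjusted p = 0.086 and 0.214).

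Other genes of the same pathways were read from 4 lists. Of 71 genes tested among 78 listed, 10 fell and 1 rose in obese fat. That is 15.5% called, beside 9.71% of all genes (3.85% lower and 5.86% higher). Of 26 other uptake and glycolysis genes 4 fell, among them Eno3, the muscle enolase (log2 -0.86 ± 0.15), Slc2a4, the insulin-regulated transporter (-0.74 ± 0.13) and Slc2a3, a high-affinity transporter (36.4 ± 3.67 to 19.6 ± 6.26 CPM). Of 19 other glycogen genes 3 fell and 1 rose. Phka2 and Phkg1, subunits of phosphorylase kinase, had log2 changes of -0.62 ± 0.12 and -1.29 ± 0.32. Skeletal muscle markers, since Eno3 and Phkg1 are muscle genes, summed to 35.4 to 391 CPM in lean libraries against 83.2 to 238 CPM in obese libraries. Acta1 made up most of these sums, at 29.65 to 319.9 CPM in lean and 70.42 to 189.4 CPM in obese libraries. Ckm reached at most 65.08 CPM, and each other muscle marker stayed at 5.533 CPM or less. The part of the muscle markers in these values was not tested. Stbd1, a glycogen-binding membrane protein, rose from 11.4 ± 4.53 to 21.2 ± 4.31 CPM. Of 15 other pyruvate and pentose phosphate genes 1 fell, Pdp2, a phosphatase that reactivates pyruvate dehydrogenase (5.15 ± 0.653 to 2.81 ± 0.666 CPM). Of 11 regulators Mlxipl, the glucose-sensing factor ChREBP (log2 -1.14 ± 0.19), and Srebf1 (log2 -0.70 ± 0.20) fell.

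Without the 4 libraries above 1000 CPM of epididymis markers, which left 4 lean and 2 obese libraries and 125 calls over all genes beside 1477, 2 members passed, Pfkp (log2 0.87, adjusted p = 0.0484) and Pdk2 (log2 -0.79, adjusted p = 0.0405). The other 8 kept their sign, with log2 values from -1.10 for Pfkfb1 to 1.03 for Pdk4. In a fit with epididymis level as covariate 6 passed: Hk2, Pfkp, Pfkfb1, Pfkfb4, Pdk2 and Gys1. That fit called 585 genes in all. Leaving out 1 library at a time gave 6 to 10 calls, with 6 without lean replicate 2 or 4 or obese replicate 2, 3 or 4. In each of these fits Pfkp and Pdk2 passed. Calls over all genes were 1046 and 1031 without lean replicate 2 and 4, and 849 and 887 without obese replicate 2 and 3. Exons of Gys1 overlapped Ruvbl2 on the opposite strand over 6.47% of their length, those of Pfkp overlapped Pitrm1 over 5.58% and those of Pfkfb1 overlapped Apex2 over 3.06%. Whether counting used strand is not given in the sources used here.

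Weight loss against obese fat compares mice after 1 week back on chow with mice kept on the high-fat diet. Of the 43 members 3 passed: Pdk2 rose, and Tpi1 and Pgd fell. That is 6.98% of the members against 1.62% of all genes (0.736% higher and 0.881% lower). The members' median log2 fold change was -0.08, beside 0.02 over all genes. Pdk2 rose from 94.2 ± 7.05 CPM (SD, n = 5) to 157 ± 18.6 CPM (SD, n = 4), a log2 change of 0.73 ± 0.11 (adjusted p = 0.00266), and every weight loss library lay above every obese library. Both comparisons of Pdk2 share the same 5 obese libraries. Tpi1 fell by 0.91 ± 0.20 on the log2 scale (adjusted p = 0.0318), from 626 ± 132 to 334 ± 105 CPM. Pgd, the 6-phosphogluconate dehydrogenase that yields NADPH, stood at 414, 495, 464, 452 and 476 CPM in lean, 555, 473, 643, 534 and 649 CPM in obese and 281, 372, 269.9 and 483 CPM in weight loss replicates. Weight loss replicate 4 reached into the obese range, and the other 3 lay below all lean and obese libraries. Pgd fell by 0.70 ± 0.16 on the log2 scale (adjusted p = 0.0435).

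The enzymes of lower glycolysis all had negative log2 values after weight loss, 8 of 8, with a median of -0.41 beside 0.02 over all genes. Of these Tpi1 passed the threshold, and 6 of 8 had an unadjusted p under 0.05, beside 14.3% of all genes. The same 8 values were negative with DESeq2 size factors and with library size alone. These scalings moved the median only from -0.408 to -0.419 and -0.395, so they could hardly test the signs. From the fits that took epididymis markers into account, only Tpi1 among the 8 is given, below. Over all 43 members, 18 lay below 0.05 before adjustment in the main fit. With epididymis level as a covariate 8 did, and without the libraries rich in it 7 did. The share of all genes below 0.05 before adjustment was not counted in these 2 fits. They called 27 and 20 genes after adjustment, beside 246 in the main fit. The summed level of the 8 genes was 4161 ± 451 CPM in lean, 4283 ± 574 CPM in obese and 3162 ± 642 CPM in weight loss fat. Eno1, enolase, stood at 498, 530.0, 564, 508 and 833 CPM in obese and 363, 416, 349 and 493.3 CPM in weight loss replicates, ranges that did not overlap (log2 -0.53 ± 0.18, adjusted p = 0.168). Gapdh stood at 847, 770.1, 858, 789 and 1062 CPM in obese and 571, 647, 454 and 786 CPM in weight loss replicates, with 1 weight loss library inside the obese range (log2 -0.49 ± 0.16, adjusted p = 0.168). At a log2 value of -0.61 ± 0.19, Ldha missed the threshold (adjusted p = 0.14), and it passed with DESeq2's Wald test (adjusted p = 0.0414). The Wald test called 691 genes in this comparison, beside 246 in edgeR's test. Since Gapdh is often used as a reference gene, its group means are given: 829.1 ± 137 CPM in lean, 865 ± 116 CPM in obese and 614 ± 139 CPM in weight loss fat. In weight loss replicate 4 these enzymes were at the upper end of their group: it was the highest of the 4 libraries for Aldoa, Tpi1, Gapdh, Pgk1, Pgam1, Eno1, Pkm and Ldha.

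**Figure D3:**
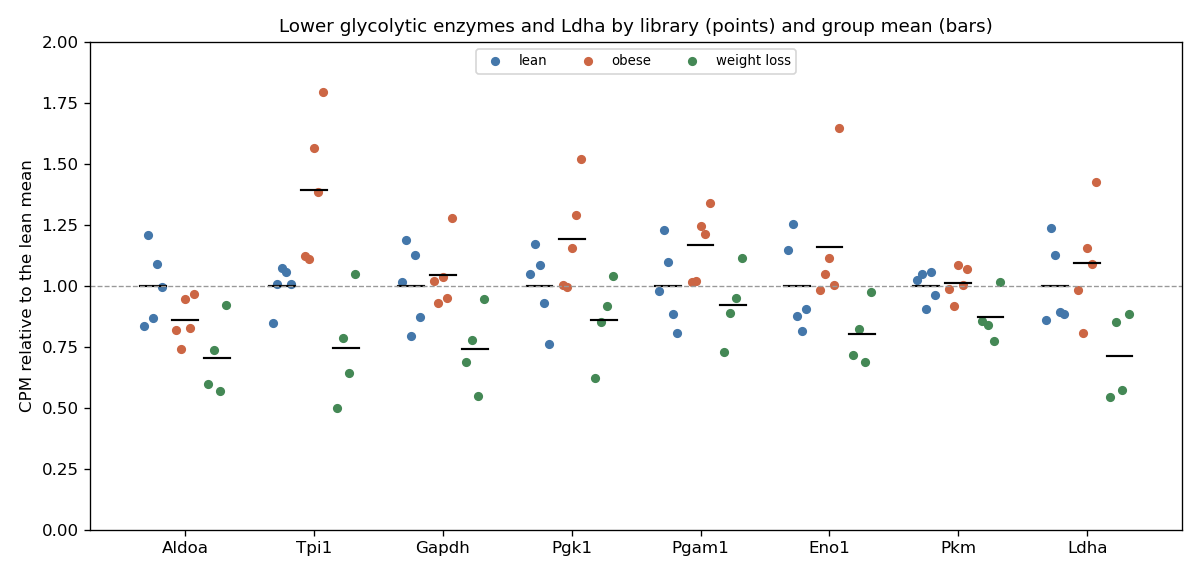
CPM of 7 lower glycolytic enzymes and Ldha in each library divided by the mean of the 5 lean libraries (y axis), with bars at the group means and a dashed line at the lean mean. Weight loss means lie below the lean and the obese means for each gene, and Tpi1 passed the test against obese fat.

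Several further members had separate ranges or small unadjusted p values without passing after weight loss. Pfkfb3 stood at 657 ± 23.6 CPM in obese and 904 ± 85.2 CPM in weight loss fat (log2 0.46 ± 0.11, adjusted p = 0.0551). It passed with DESeq2's Wald test (691 genes called, beside 246 in edgeR's test), when only both groups were fitted, and without lean replicate 4. Pfkfb4 stood at 28.5 ± 8.21 and 15.7 ± 2.76 CPM (log2 -0.86 ± 0.22, adjusted p = 0.0657), with separate ranges, and passed with DESeq2's Wald test and without obese replicate 3. Gys2, the liver-type glycogen synthase and a small part of the family here, stood at 11.8, 8.59, 11.4, 15.5 and 15.2 CPM in obese and 1.58, 7.98, 2.80 and 4.70 CPM in weight loss replicates. Those ranges were apart, with a log2 value of -1.55 ± 0.45 (adjusted p = 0.104), and Gys2 passed with DESeq2's Wald test and without weight loss replicate 2. Over all members, 2 had ranges wholly higher and 4 wholly lower after weight loss, beside 3.38% and 3.27% of all genes. Of the 6 members that fell in obese against lean fat, Pdk2 rose after weight loss and the other 5 did not pass. Hk2, Gys1, Pfkfb1 and Pygb had log2 values of 0.40 ± 0.13, 0.44 ± 0.16, 0.47 ± 0.20 and 0.28 ± 0.13 (adjusted p = 0.143, 0.23, 0.284 and 0.346). Tkt had a value near 0, -0.06 ± 0.23 (adjusted p = 0.944), with means of 562 CPM in obese and 538 CPM in weight loss fat. Of the 4 members that rose in obese fat none passed after weight loss: besides Pfkfb4, Pfkp had a log2 value of -0.34 ± 0.14, Slc16a1 of -0.13 ± 0.21 and Pdk4 of 0.29 ± 0.32 (adjusted p = 0.266, 0.858 and 0.757). Both comparisons use the same 5 obese libraries. All 4 pentose phosphate members had negative log2 values after weight loss, and Pgd passed. Of the 71 other pathway genes 0 passed edgeR's test, beside 1.62% of all genes, and 11 had an unadjusted p under 0.05, beside 14.3% of all genes.

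None of the 3 calls after weight loss passed in a fit that held epididymis level as a covariate, nor without the 4 libraries rich in it, which left 2 obese libraries. The log2 values in these fits were 0.69 and 0.83 for Pdk2 (adjusted p = 0.106 and 0.0862), -0.88 and -0.85 for Tpi1 (adjusted p = 0.385 and 0.439) and -0.75 and -0.77 for Pgd (adjusted p = 0.307 and 0.416). Calls over all genes numbered 27 and 20 in these fits, beside 246. Leaving out 1 library at a time gave 1 to 3 calls, and Pdk2 passed in each such fit. Pdk2 was the only 1 of the 3 to pass without obese replicate 3, 4 or 5 or weight loss replicate 1, 2 or 3. Without obese replicate 3 Pfkfb4 passed as well, and without weight loss replicate 2 Gys2 did. Pgd and Tpi1 also missed the threshold when only both groups were fitted.

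Weight loss against lean fat compares mice after the return to chow with mice never given the high-fat diet. Of the 43 members 0 passed edgeR's test, against 0.0329% of all genes, and 17 had an unadjusted p under 0.05, beside 11.4% of all genes. DESeq2's Wald test called 3 (Pdk4 higher, Gys2 and Tkt lower) and limma-voom 0. Over all genes these 2 tests called 243 and 1, beside 5 in edgeR's test. Pdk4 stood at 22.8 ± 7.18 CPM in lean fat against 59.6 ± 32 CPM in weight loss fat (log2 1.38 ± 0.32, adjusted p = 0.131). It passed without weight loss replicate 4, the library with the lowest Pdk4 of its group (log2 1.59, adjusted p = 0.0168). Gys2 stood at 6.91, 10.1, 11.6, 27.4 and 13.5 CPM in lean replicates, and had a log2 value of -1.70 ± 0.45 (adjusted p = 0.159). Tkt stood at 979 ± 268 CPM in lean fat against 538 ± 176 CPM in weight loss fat (log2 -0.86 ± 0.23, adjusted p = 0.172). Pdk2 had a log2 value of 0.08 ± 0.11 and Hk2 of -0.11 ± 0.13 against lean fat (adjusted p = 0.807 and 0.787). Of the 43 members 28 had negative and 15 positive log2 values, and the median was -0.15 beside 0.00 over all genes. Pfkm was the only member whose ranges were apart (1 lower, beside 0.704% of all genes lower and 1.58% higher), at 37.0 to 41.2 CPM in lean fat against 29.6 to 35.5 CPM in weight loss fat (adjusted p = 0.421).

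Ratios of isozymes were compared within libraries, as log2 ratios of CPM plus 0.5. The added 0.5 weighs most on low members: Aldoc, at 0.142 CPM in lean replicate 2, gave a log2 ratio to Aldoa of -11.59 there. With 8 ratios in 3 comparisons, 0 of 24 passed after Benjamini-Hochberg adjustment in exact two-sided permutation tests, whose smallest p for 5 against 5 or 4 against 5 libraries was 0.00794. A ratio at that smallest p, with wholly separate ranges, had an adjusted p of 0.0762 and did not pass. The count of 0 therefore does not show that the ratios were unchanged. The log2 ratio of Pdk4 to Pdk2 was -2.38, -2.46, -2.21, -3.56 and -3.04 in lean, -0.93, -0.86, -0.94, -0.67 and -1.39 in obese and -1.51, -1.48, -0.52 and -2.65 in weight loss replicates. Obese libraries were all higher than lean ones, by 1.77 in the mean (exact permutation p = 0.00794, adjusted p = 0.0762), and weight loss libraries overlapped both groups. For Gys2 to Gys1 every weight loss library was below every obese library, by 2.03 in the mean (exact permutation p = 0.00794, adjusted p = 0.0762). The ratio of Ldhb to Ldha was -1.89 ± 0.271 in lean, -2.31 ± 0.137 in obese and -1.84 ± 0.311 in weight loss fat (exact permutation p = 0.0159 for obese against lean and for weight loss against obese, adjusted p = 0.0762 for each). For Hk2 to Hk1 the mean ratio was 2.05 in lean and 1.40 in obese fat (exact permutation p = 0.0159, adjusted p = 0.0762).

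**Figure D4:**
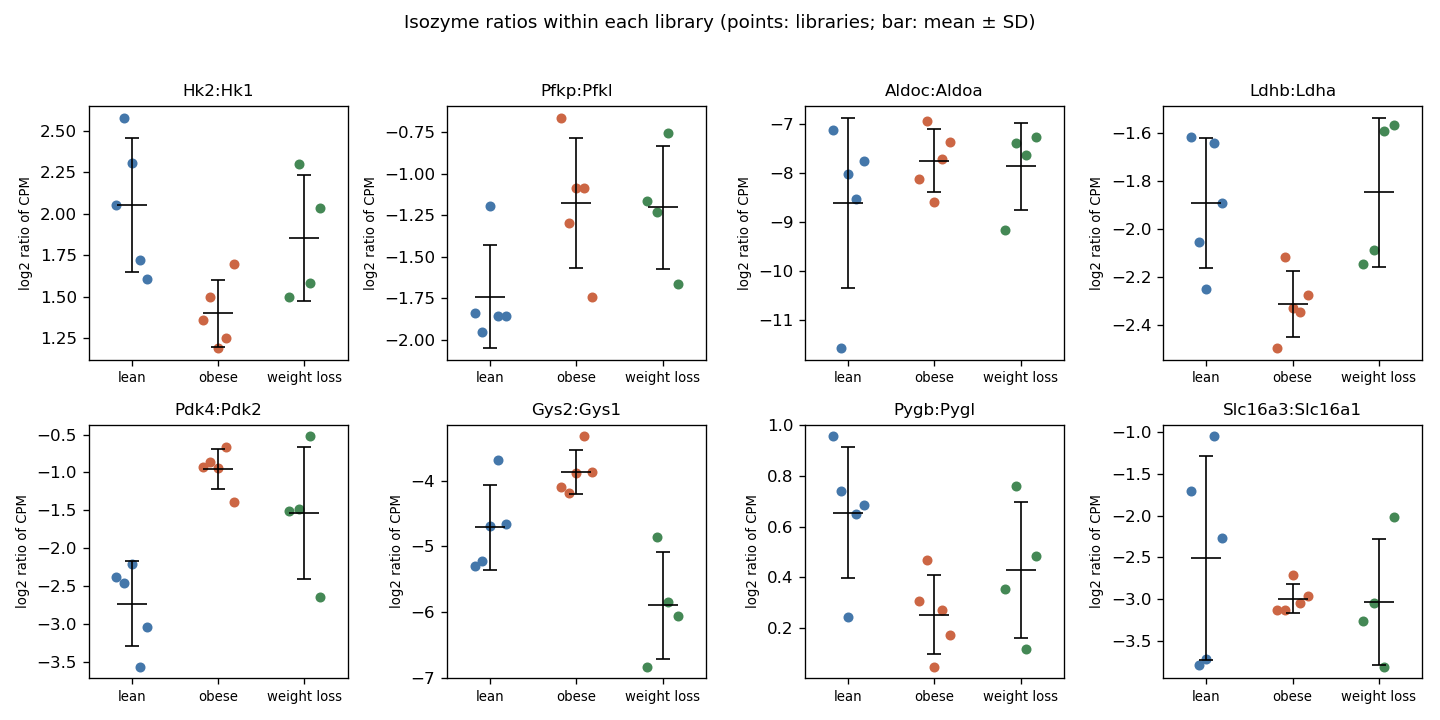
Log2 ratio of CPM (y axis, not from 0) of 8 pairs of isozymes, with 1 point per library and the mean ± SD of each group. Obese libraries lie wholly above lean ones for Pdk4 to Pdk2, and weight loss libraries wholly below obese ones for Gys2 to Gys1.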

How the data were processed

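The authors deposited a table of raw expected counts per Entrez gene ID, with 34.8% of the values not whole, and the submitters' processing notes name mm10. For the aligner, counter and annotation nothing is given in the sources used here. Lines of the same ID were summed (36172 lines, 35794 IDs), 32919 IDs took symbols from RefSeq (GRCm38.p6), 24 others took theirs from GENCODE M21, and counts were rounded. Every member had counts that were not whole in at least 1 library; how reads shared with related genes or pseudogenes were counted is not stated.

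Libraries of at least 1000000 counts were used, which left 14 of 15. Genes were kept by filterByExpr, scaled by TMM and fitted with 1 coefficient per group in edgeR 4.0.16 (glmQLFit, glmQLFTest, R 4.3.3). P-values are two-sided and adjusted over 15208 genes, with a threshold of 0.05. Dividing the size of the log2 fold change by the root of F gave its standard error. Ratios used CPM plus 0.5. Levels per kilobase used merged exons of GENCODE M21 basic coding transcripts. Alternatives were DESeq2 1.42.0, limma-voom (limma 3.58.1), other scalings and filters, only the groups compared, a replicate block, an epididymis covariate and left-out libraries. Members passing in any comparison and the most abundant member per length of each role group are given by library. Of other pathway genes, those with the 3 smallest p per list are named. The members, lists and alternatives were chosen with earlier results of these data known.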

Additional observations from a re-analysis of the deposited data

Results flagged for a closer look

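Single libraries stood apart from the rest of their group for 12 of 129 sets of a member and a group, by the gap to the next library over the group's range. Chance alone flags about 1 in 20 sets. Pck1 was flagged in each group: 1042 CPM in lean replicate 3 against 636 to 696 CPM in the other lean libraries, 521 CPM in obese replicate 5 against 775 to 846 CPM, and 629 CPM in weight loss replicate 4 against 1183 to 1264 CPM. Obese replicate 5 was also high for Pfkl (273 CPM, others 172 to 194 CPM), Eno1 (833 CPM, others 498 to 564 CPM) and Gbe1 (41.4 CPM, others 23.9 to 28.3 CPM), and low for Ugp2 (79.6 CPM, others 93.8 to 98.8 CPM). Weight loss replicate 3 was low for Hk2 (123 CPM, others 171 to 174 CPM) and high for Slc16a1 (82.2 CPM, others 52.3 to 55.8 CPM). Weight loss replicate 4 was high for Slc16a3 (12.8 CPM, others 5.36 to 5.90 CPM). Lean replicate 1 was high for Slc2a1 (31.2 CPM, others 22.9 to 24.3 CPM), and obese replicate 4 for Pdk1 (46.7 CPM, others 25.7 to 27.1 CPM). Weight loss replicate 5, left out for its total of 230 counts, held 4 counts over 3 members.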

How the results depend on the processing

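Of the 13 member changes that passed, all kept their sign under each of the 24 alternatives. Pfkp and Pdk2 in obese against lean fat passed under all 24, with highest adjusted p values of 0.0484 and 0.0405. Hk2, Pfkfb1, Pfkfb4 and Gys1 in that comparison lost their call under 1 each. Pygb lost it under 11, Pdk4 under 10, and Slc16a1 and Tkt under 9 each. In weight loss against obese fat, Pgd lost its call under 16, Tpi1 under 9 and Pdk2 under 2. The number of members called in obese against lean fat was 10. It became 6 when epididymis level was a covariate and 2 when libraries rich in epididymal transcripts were left out. Leaving out 1 library gave 6 to 10. Calls over all genes moved as well, from 1477 to 585 and 125 in the 2 epididymis fits. They were 849 without obese replicate 2 and 1673 without lean replicate 3. For weight loss against obese fat the number of members was 3, and 7 with DESeq2's Wald test and 0 under both epididymis alternatives. Leaving out 1 library gave 1 to 3. All genes called there numbered 246, beside 691 with the Wald test and 27 and 20 under the epididymis alternatives. For weight loss against lean fat the number of members was 0, and 3 with DESeq2's Wald test and 0 to 1 when 1 library was left out. All genes called there numbered 5, beside 243 with the Wald test. The cause was not tested. The count of isozyme ratios past the threshold was 0 in each comparison. Leaving out 1 library gave 0 to 3 in obese against lean fat and 0 to 1 in weight loss against obese fat, the higher values without lean replicate 3. With the replicate number as a block, 9, 2 and 0 members were called in the 3 comparisons, and Tkt and Pgd lost their call. Calls over all genes were 1618, 172 and 2 with this block. The numbers were not taken to pair the libraries, since 4 of 13 same-numbered pairs had a correlation of deviations over 0.1 (range -0.55 to 0.40), and 3 of 14 libraries correlated best with their own number. Of 2568 alternative values of members called under no setting, 115 had the other sign.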
